A study of Mus musculus with 6 samples.

Results

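The genes of the nuclear factor κB (NF-κB) transcription factor and of the inhibitors it induces were examined in bone marrow-derived macrophages (BMDMs) after co-culture with ID8, an ovarian cancer line that arose in a female mouse. Members were taken by name from the deposited gene table, which gave 10 of 54532 genes, namely the 5 subunit genes Nfkb1, Nfkb2, Rel, Rela and Relb and the 5 inhibitor genes Nfkbia, Nfkbib, Nfkbie, Nfkbiz and Tnfaip3. Before co-culture the cancer cells received either 40 µM cisplatin, which crosslinks DNA, or phosphate-buffered saline (PBS), and each condition gave 3 libraries. All 6 libraries came from marrow cells of C57BL/6 mice aged 6 to 8 weeks, described in the methods as monocytes, and all 6 followed co-culture with ID8, so that no library shows macrophages on their own. ID8 is a single line. The methods speak of biological replicates and of cellular experiments repeated in triplicate. They do not say whether the 3 libraries of a group came from separate cultures or animals. The p-values therefore measure the spread between these libraries, which may be technical.

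NF-κB factors are pairs of Rel-homology proteins. In resting cells the inhibitors IκBα, IκBβ and IκBε hold them in the cytoplasm, and signals from tumour necrosis factor, interleukin-1 and toll-like receptors activate the IκB kinase, which marks these inhibitors for destruction and frees RelA, c-Rel and p50. A slower route through the kinase NIK processes p100, the product of Nfkb2, into p52, the partner of RelB. NF-κB then switches on the genes of several of its own inhibitors, and in macrophages this feedback is known for shaping how long inflammatory genes stay on.

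The factor binds κB sequences, which feedback genes are known to carry near their starts. The windows with the most matches to the κB consensus decamer, with the window of the inhibitor that differed most between the groups, are shown first. RefSeq promoter windows of GRCm38.p6, from 250 bases before to 50 bases after the start, were found for 7 of the 10 genes, in 10 windows (Nfkb1, Relb and Nfkbiz were not matched). The consensus was searched on both strands, and capitals mark the matched bases. Each sequence is given 5′ to 3′ on the strand of its gene. The windows are the first Nfkb2 start at chr19:46304487-46304786 and the second at chr19:46305445-46305744, both on the plus strand, Rel at chr11:23770920-23771219 on the minus strand, the first Tnfaip3 start at chr10:19015361-19015660 on the minus strand and Nfkbia at chr12:55492598-55492897 on the minus strand.
Nfkb2, first start: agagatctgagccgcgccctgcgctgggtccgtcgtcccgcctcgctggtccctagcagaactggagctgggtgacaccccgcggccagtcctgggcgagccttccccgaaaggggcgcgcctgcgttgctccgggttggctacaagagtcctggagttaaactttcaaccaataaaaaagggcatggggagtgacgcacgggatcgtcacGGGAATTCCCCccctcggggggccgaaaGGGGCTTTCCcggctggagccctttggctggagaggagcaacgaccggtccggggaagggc
Nfkb2, second start: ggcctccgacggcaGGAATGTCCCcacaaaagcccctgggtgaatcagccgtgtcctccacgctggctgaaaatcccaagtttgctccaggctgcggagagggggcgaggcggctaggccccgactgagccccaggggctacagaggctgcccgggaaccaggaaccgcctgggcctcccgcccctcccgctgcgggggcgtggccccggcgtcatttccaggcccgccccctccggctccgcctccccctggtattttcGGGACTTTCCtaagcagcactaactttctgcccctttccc
Rel: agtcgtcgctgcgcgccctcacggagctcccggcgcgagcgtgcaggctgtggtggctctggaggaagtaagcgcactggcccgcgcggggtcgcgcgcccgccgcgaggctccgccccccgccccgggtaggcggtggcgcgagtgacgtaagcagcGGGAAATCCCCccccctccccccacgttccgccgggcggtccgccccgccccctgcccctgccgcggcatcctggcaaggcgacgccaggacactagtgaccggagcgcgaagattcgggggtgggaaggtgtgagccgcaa
Tnfaip3: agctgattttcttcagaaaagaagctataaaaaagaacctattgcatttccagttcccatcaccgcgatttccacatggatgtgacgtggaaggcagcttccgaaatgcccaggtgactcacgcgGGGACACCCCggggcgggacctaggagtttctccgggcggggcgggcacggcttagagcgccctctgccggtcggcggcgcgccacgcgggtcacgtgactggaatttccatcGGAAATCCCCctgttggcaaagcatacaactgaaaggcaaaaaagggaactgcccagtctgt
Nfkbia: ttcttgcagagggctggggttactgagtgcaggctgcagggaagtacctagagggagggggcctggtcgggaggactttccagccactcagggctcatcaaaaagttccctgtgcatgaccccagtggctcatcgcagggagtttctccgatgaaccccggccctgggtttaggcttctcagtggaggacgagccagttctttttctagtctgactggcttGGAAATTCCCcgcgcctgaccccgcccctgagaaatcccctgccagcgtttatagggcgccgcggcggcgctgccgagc
The first Nfkb2 window held 3 matches, of which 2 overlapped from 39 and 38 bases before the start and the other began 11 bases before it. The second held 2 matches, from 236 bases before its start and from position 11, counting the start as 1. Rel held 2 overlapping matches, from 92 and 91 bases before the start. Tnfaip3 held 2 separate matches, from 125 and 12 bases before its first start, and its second window held none. Nfkbia held a single match, from 29 bases before the start. Nfkbie, not printed, held 1 match, from 106 bases before the start.

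At least 1 match was present in the windows of 5 of the 7 genes (Nfkb2, Rel, Nfkbia, Nfkbie and Tnfaip3) and in 9.55% of the 27025 genes with a window. Counted by window, 7 of the 10 windows held a match, against 8.46% of all 32851 windows, and 4 of the 10 held at least 2, against 1.22%. The windows of Rela and Nfkbib held none, which says only that these letters are absent from them. The windows of the other two Nfkb2 starts overlap, and 1 match was counted in both. A match describes the sequence, and binding was not measured. Genes with matches did not share a direction in the comparison below, since Nfkbia, Nfkbie, Tnfaip3 and Nfkb2 were lower with cisplatin while Rel was higher under every scaling but that by the Y-linked genes.

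**Figure D1:**
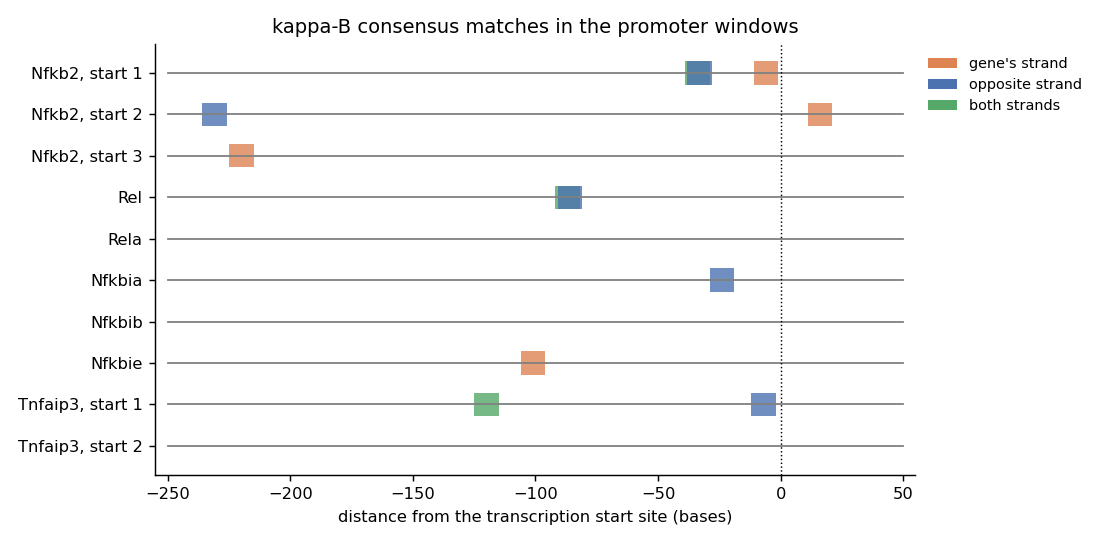
Positions of κB consensus matches (boxes, coloured by the strand that matched) in the 10 promoter windows of 7 genes, against the distance from the transcription start site in bases (dotted line: start). The 3 matches of the first Nfkb2 window lie within 39 bases before the start, the 2 boxes of Rel overlap, and the windows of Rela, Nfkbib and the second Tnfaip3 start are empty.

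Values are FPKM, fragments per kilobase of gene length and of depth, so that levels of different genes can be compared. The whole reads recovered from them summed to between 15776238 and 17924686 per library. Libraries of the same group correlated more closely (Pearson's r of 0.984 to 0.989 over 13441 genes on log2(FPKM + 1)) than libraries of different groups (0.872 to 0.877). The 10 macrophage markers had a summed level of 4195 to 4350.0 FPKM with cisplatin and 1639 to 1649 FPKM with PBS. Lyz2 made up most of this sum, with means of 3459 and 1161 FPKM, and Mertk stayed at 0.134 to 0.430 FPKM with PBS. The ID8 and mesothelial markers went the other way, with 247 to 268 FPKM with cisplatin against 1311 to 1414 FPKM with PBS over 13 genes, of which 9 of the 10 tested were lower and none was at 0 in every library (Krt7, Epcam and Igfbp5 stayed under 1 FPKM). Neutrophil markers summed to 8814 to 9064 FPKM against 4743 to 4906 FPKM, with 7 of 8 higher and Ly6g not passing (log2 fold change 0.13, limma adjusted p = 0.349). S100a8 and S100a9 made up most of this sum, with means of 2581 and 5233 FPKM with cisplatin and 1423 and 3105 FPKM with PBS. The B-lineage genes Cd79a, Cd79b and Ms4a1 were present too, with means of 147, 178 and 48.96 FPKM with cisplatin and 63.9, 79.8 and 15.7 FPKM with PBS. Xist stood at 7.57 to 7.94 FPKM with cisplatin and 39.0 to 48.8 FPKM with PBS, whereas the Y-linked Ddx3y, Eif2s3y, Kdm5d and Uty together summed to 41.6 to 42.8 FPKM and 19.5 to 22.7 FPKM. One alternative below, named scaling by the Y-linked genes, sets the geometric mean of these 4 to be equal in all libraries. The sex of the marrow donors is not given in the sources used here, so whether these genes stand for the marrow cells was not tested. Their own differences on log2(FPKM + 1) ran from 0.55 (Uty) to 1.15 (Ddx3y). The pseudocount, which the scaling itself does not use, makes those of the low genes small. Means were 2.67 FPKM with cisplatin and 1.51 FPKM with PBS for Uty, and 2.39 and 1.05 FPKM for Kdm5d. The libraries thus held RNA of more than 1 cell type, in amounts that differed between the groups, and its part in the results was not tested.

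Of the inhibitor genes 4 of 5 were lower, and the subunit genes moved both ways, the rises turning to falls when scaled by the Y-linked genes. With cisplatin-pretreated ID8 cells, Nfkbia, Nfkbie, Nfkbiz and Tnfaip3 fell by 22.1% to 32.0% in mean level, and Nfkb2 fell by 17.0%. Rela fell by 12.9%, a call that was lost in 7 of 20 alternatives. Nfkb1 rose by 21.97% and Rel by 15.6%, but both were lower when the libraries were scaled by the 4 Y-linked genes. Under that scaling 82.6% of all tested genes were lower. All 10 genes passed the filter on low values, in both groups. At an adjusted p under 0.05 (limma, Benjamini-Hochberg over 13441 genes), 2 of the 10 were higher, where 32.9% of all tested genes were, and 6 were lower, where 35.1% of all tested genes were. None also reached a 2-fold difference in either direction, against 4.67% of tested genes higher and 11.3% lower by that rule. In 9 of the 10 the 3 libraries of one group did not overlap the 3 of the other, as in 72.4% of all tested genes. On the log2 scale the median difference was -0.23 over the 10 genes and -0.0011 over all tested genes. Passing the test was common in these data, and the differences of the 10 genes were modest in size.

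**Figure D2:**
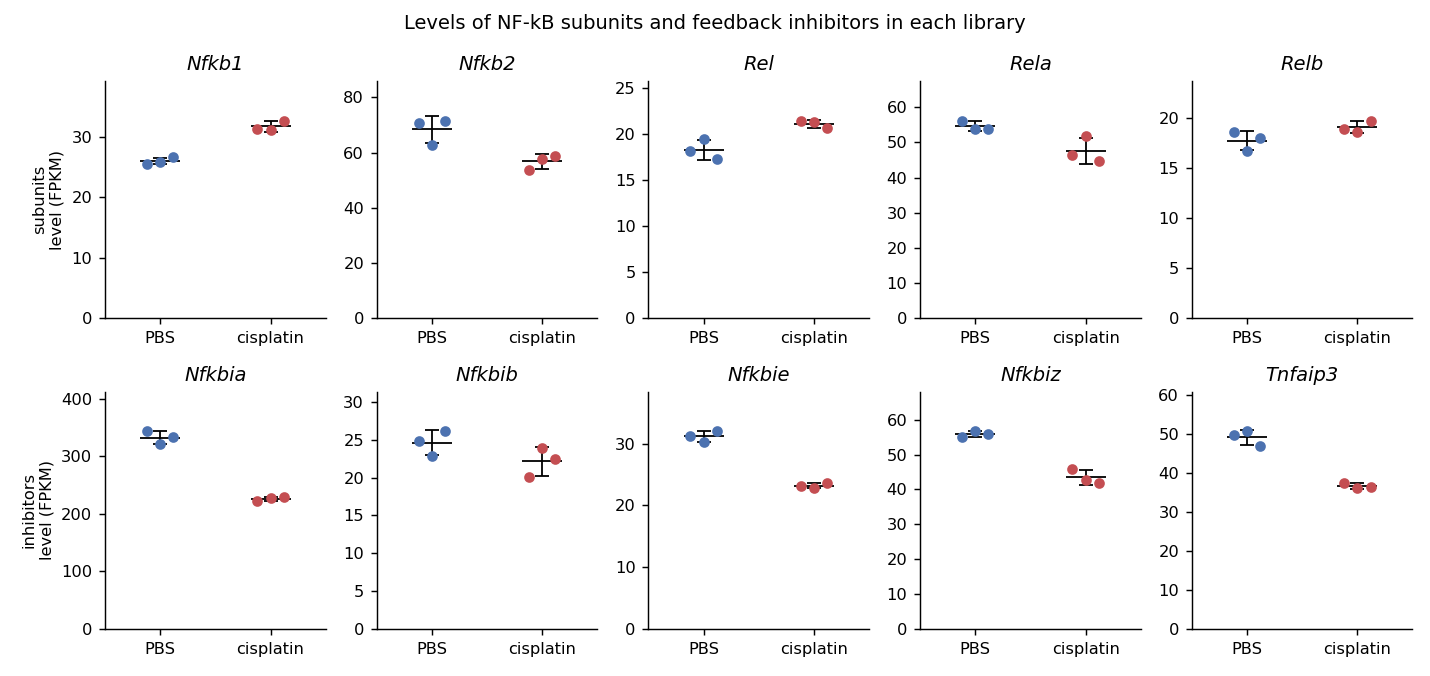
Level in FPKM of each of the 10 genes in the 3 PBS libraries (blue) and the 3 cisplatin libraries (red), each panel with its own axis from 0, subunits above and inhibitors below; horizontal lines are means and error bars 1 SD. The groups overlap only in Nfkbib, and the clearest separation is in Nfkbia, at 222 to 228 FPKM with cisplatin against 320.4 to 343 FPKM with PBS.

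Among the subunits, Rela encodes p65, the subunit that carries the main activation domain of the canonical pathway. Rela (ENSMUSG00000024927, chromosome 19, 5637483 to 5648130, plus strand) stood at 46.3, 51.8 and 44.8 FPKM in cisplatin replicates 1, 2 and 3 and at 56.2, 53.9 and 53.9 FPKM in PBS replicates 1, 2 and 3. The second cisplatin library came close to the PBS libraries without overlapping them. The log2 fold change was -0.20 (SE 0.058, 95% interval -0.33 to -0.060, limma adjusted p = 0.0194). This difference was the least steady of those that passed. Without PBS replicate 1 it was -0.18 (limma adjusted p = 0.0635), without cisplatin replicate 1 -0.18 (adjusted p = 0.0571) and without cisplatin replicate 3 -0.16 (adjusted p = 0.063). After removal of the trend with GC content, which is 59.4% in Rela, the log2 fold change was -0.043 (adjusted p = 0.508). It was -0.12 (adjusted p = 0.0698) with limma voom on the recovered reads, -0.13 (adjusted p = 0.0707) with quantile normalisation and -0.11 (adjusted p = 0.134) with scaling by recovered reads.

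Nfkb1 encodes p105, the precursor of p50, the usual partner of RelA. Nfkb1 (ENSMUSG00000028163, chromosome 3, 135584655 to 135691547, minus strand) stood at 31.2, 31.2 and 32.7 FPKM with cisplatin and at 25.6, 25.8 and 26.6 FPKM with PBS. Every cisplatin library lay above every PBS library, and the scatter within a group was small, with a coefficient of variation of 2.68% and 2.15%. The log2 fold change was 0.28 (SE 0.037, 95% interval 0.19 to 0.37, limma adjusted p = 0.000529), the largest rise among the 10 genes, but -0.69 under scaling by the Y-linked genes. A gene model on the same strand, Gm43430, overlaps Nfkb1 at no more than 0.388 FPKM.

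Nfkb2 encodes p100, which is both the precursor of p52 and an inhibitor of RelB and other subunits. Nfkb2 (ENSMUSG00000025225, chromosome 19, 46304737 to 46312090, plus strand) stood at 53.7, 57.8 and 58.9 FPKM with cisplatin and at 70.8, 62.9 and 71.6 FPKM with PBS. The second PBS library was the closest to the cisplatin libraries, and the groups did not overlap. With a difference of -0.26 on the log2 scale (SE 0.062, 95% interval -0.41 to -0.12, limma adjusted p = 0.00771), Nfkb2 moved opposite to its close relative Nfkb1, except under scaling by the Y-linked genes, where both were lower. Removal of the GC trend brought the difference to -0.11 (adjusted p = 0.0276). Psd, on the opposite strand, overlaps Nfkb2 at 2.62 to 4.97 FPKM.

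Rel encodes c-Rel, a subunit prominent in lymphoid and myeloid cells. Rel (ENSMUSG00000020275, chromosome 11, 23736847 to 23770970, minus strand) stood at 21.5, 21.3 and 20.7 FPKM with cisplatin and at 18.2, 19.5 and 17.3 FPKM with PBS. The cisplatin libraries were all higher and lay closer together than the PBS libraries. Its log2 fold change was 0.20 (SE 0.051, 95% interval 0.079 to 0.32, limma adjusted p = 0.0107), and -0.75 under scaling by the Y-linked genes.

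Relb encodes RelB, the subunit that pairs with p52 in the slower route. Relb (ENSMUSG00000002983, chromosome 7, 19606217 to 19629438, minus strand) stood at 18.8, 18.6 and 19.7 FPKM with cisplatin and at 18.5, 16.7 and 17.96 FPKM with PBS. The groups were barely apart, since the lowest cisplatin library at 18.56 FPKM was next to the highest PBS library at 18.54 FPKM. The log2 fold change of 0.099 did not pass (SE 0.051, 95% interval -0.023 to 0.22, limma adjusted p = 0.126). It did pass under 5 of 20 alternatives with a positive value, among them limma voom on the recovered reads (0.19, adjusted p = 0.00856) and removal of the GC trend (0.19, adjusted p = 0.00703), and it was 0.058 without PBS replicate 2 and -0.85 under scaling by the Y-linked genes.

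Of the inhibitors, Nfkbia encodes IκBα, which is made rapidly after activation, enters the nucleus and takes RelA and c-Rel off DNA. Nfkbia (ENSMUSG00000021025, chromosome 12, 55489410 to 55492647, minus strand) stood at 222, 227 and 228 FPKM with cisplatin and at 343, 320.4 and 334 FPKM with PBS. All cisplatin libraries lay far below all PBS libraries, and the gap between the groups exceeded the range within either. The log2 fold change was -0.55 (SE 0.036, 95% interval -0.64 to -0.47, limma adjusted p = 1.32e-05), the largest difference of the 10 genes. It was lower than that of most genes but not extreme, since 20.97% of all tested genes had a lower log2 fold change. In these bulk samples fewer cells of a type and less RNA per cell cannot be told apart.

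Nfkbie encodes IκBε, an inhibitor that is also resynthesised after activation, with a delay to IκBα. Nfkbie (ENSMUSG00000023947, chromosome 17, 45555703 to 45563169, plus strand) stood at 23.1, 22.8 and 23.7 FPKM with cisplatin and at 31.2, 30.3 and 32.0 FPKM with PBS. The groups were well apart, by -0.41 on the log2 scale (SE 0.037, 95% interval -0.50 to -0.32, limma adjusted p = 6.89e-05).

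Tnfaip3 encodes A20, a ubiquitin-editing enzyme that shuts off signalling upstream of the IκB kinase. Tnfaip3 (ENSMUSG00000019850, chromosome 10, 19000910 to 19015657, minus strand) stood at 37.5, 36.2 and 36.3 FPKM with cisplatin and at 49.6, 50.6 and 46.97 FPKM with PBS. It too was lower in every cisplatin library. A log2 fold change of -0.41 (SE 0.040, 95% interval -0.51 to -0.32, limma adjusted p = 9.78e-05) was nearly that of Nfkbie.

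Nfkbiz encodes IκBζ, a nuclear member of the family that assists in the transcription of a subset of secondary response genes and does not hold NF-κB in the cytoplasm. Nfkbiz (ENSMUSG00000035356, chromosome 16, 55811375 to 55838899, minus strand) stood at 45.99, 42.7 and 42.0 FPKM with cisplatin and at 55.04, 56.7 and 55.95 FPKM with PBS. The first cisplatin library was the highest of its group and still below every PBS library. Nfkbiz had a log2 fold change of -0.35 (SE 0.043, 95% interval -0.46 to -0.25, limma adjusted p = 0.000305).

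Nfkbib encodes IκBβ, the cytoplasmic inhibitor that is the least dependent on NF-κB for its own transcription. Nfkbib (ENSMUSG00000030595, chromosome 7, 28758251 to 28767512, minus strand) stood at 20.1, 23.9 and 22.5 FPKM with cisplatin and at 24.8, 22.9 and 26.1 FPKM with PBS. The second library of each group fell inside the range of the other group. The log2 fold change of -0.15 did not pass (SE 0.076, 95% interval -0.33 to 0.033, limma adjusted p = 0.125). Removal of the GC trend brought Nfkbib, with a GC content of 58.8%, to -0.0070 (adjusted p = 0.904), limma voom gave -0.069, scaling by the Y-linked genes -1.10, scaling by recovered reads -0.064 and leaving out cisplatin replicate 1 -0.081. Sirt2 on the opposite strand overlaps Nfkbib at a like level, 20.4 to 23.2 FPKM, and strand in the counting is not stated, so this value is less certain than the others.

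By role, 4 of the 5 inhibitors were lower and 1 did not pass, with a median of -0.41 on the log2 scale. Of the 5 subunits 2 were lower, 1 did not pass and 2 were higher except under scaling by the Y-linked genes, with a median of 0.099, which is near the shares of all tested genes (35.1% lower, 32.9% higher). The difference between the roles was not tested. In each of the 20 alternatives that gave a fold change for single genes, scalings included, the 4 inhibitors that fell remained lower at an adjusted p under 0.05, as did Nfkb2. Several of the 20, such as changed filters, a replicate block and median-of-ratios scaling, leave the fold change as it is and could not turn a direction. The rises of Nfkb1 and Rel held in 19 of the 20 and turned in the remaining one, the scaling by the Y-linked genes. That scaling moved the median log2 fold change of all tested genes to -0.83, with 82.6% of genes lower. Relative to that median, Nfkb1 stood at 0.14 and Rel at 0.083, Relb at -0.015, Rela at -0.34 and Nfkb2 at -0.41, and the inhibitors at -0.27 (Nfkbib) to -0.72 (Nfkbia). The falls were larger on it, at -1.55 for Nfkbia, -1.39 for Tnfaip3, -1.37 for Nfkbie, -1.33 for Nfkbiz, -1.24 for Nfkb2 and -1.18 for Rela. On that scaling all 10 genes were lower, 7 of them at least 2-fold, where 38.5% of all tested genes were. The ID8 and mesothelial sum, 247 to 268 FPKM with cisplatin against 1311 to 1414 FPKM with PBS, moved the same way as the inhibitors, and the macrophage and neutrophil sums moved the opposite way, and the part of these cells in the levels of the 10 genes and of the pathway genes below was not tested.

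**Figure D3:**
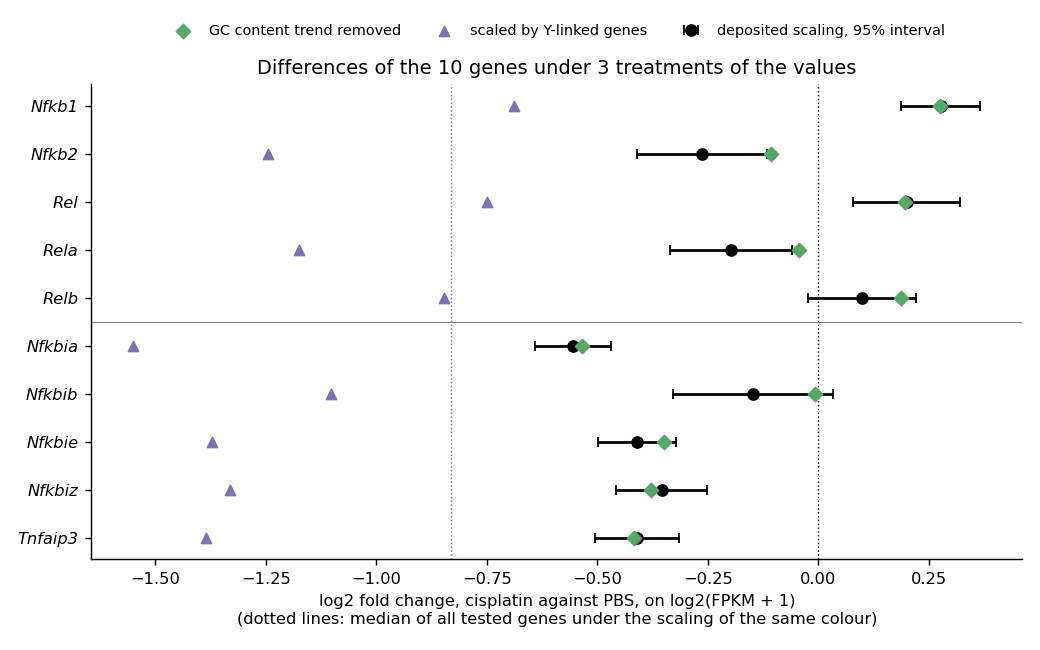
Log2 fold change of cisplatin against PBS on log2(FPKM + 1) for the 10 genes, with the deposited scaling (circles, bars the 95% interval from limma), with the GC trend removed (diamonds) and with scaling by the Y-linked genes (triangles); dotted lines are the medians of all tested genes under the deposited and the Y-linked scaling. Under the deposited scaling Nfkb1 and Rel lie above 0 and under the Y-linked scaling they lie below 0, while Nfkbia lies lowest under both, at -0.55 and -1.55.

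The order of the levels was much the same in both groups, with Nfkbia far ahead. With PBS the means were 332 ± 11.5 FPKM for Nfkbia, 68.4 ± 4.82 for Nfkb2, 55.9 ± 0.815 for Nfkbiz, 54.7 ± 1.33 for Rela, 49.1 ± 1.89 for Tnfaip3, 31.2 ± 0.840 for Nfkbie, 26.0 ± 0.559 for Nfkb1, 24.6 ± 1.64 for Nfkbib, 18.3 ± 1.10 for Rel and 17.7 ± 0.965 for Relb (SD, n = 3). Of these neighbours, Nfkbiz and Rela, Nfkb1 and Nfkbib, and Rel and Relb overlapped between libraries. With cisplatin the means were 226 ± 3.33 FPKM for Nfkbia, 56.8 ± 2.75 for Nfkb2, 47.6 ± 3.66 for Rela, 43.5 ± 2.15 for Nfkbiz, 36.6 ± 0.714 for Tnfaip3, 31.7 ± 0.850 for Nfkb1, 23.2 ± 0.438 for Nfkbie, 22.2 ± 1.94 for Nfkbib, 21.2 ± 0.427 for Rel and 19.0 ± 0.603 for Relb (SD, n = 3). Here Rela and Nfkbiz, Nfkbie and Nfkbib, and Nfkbib and Rel overlapped. Nfkb1 thus stood below Nfkbie in the PBS libraries and above it in the cisplatin libraries, with no overlap in either group.

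Summed over the 5 subunits, the level was 172, 181 and 177 FPKM with cisplatin and 189, 179 and 187 FPKM with PBS. These sums overlapped between the groups. The 5 inhibitors summed to 349, 353 and 353 FPKM with cisplatin and to 504, 481 and 495 FPKM with PBS. Without Nfkbia, which dominates that sum, the other 4 inhibitors gave 127, 126 and 124 FPKM against 161, 161 and 161 FPKM, so the lower inhibitor level did not rest on Nfkbia alone. Nfkbia took 42.6% to 43.1% of the 10 genes' summed level with cisplatin and 48.6% to 49.5% with PBS.

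Ratios within a library do not change when each library is scaled by a single factor, though quantile normalisation and removal of a GC trend can change them, and 5 were taken as a description, with no test. Nfkbia to Rela, the main inhibitor against its main client, was 4.80, 4.39 and 5.10 with cisplatin and 6.11, 5.95 and 6.19 with PBS. Nfkb2 to Nfkb1, the genes of the p100 and p105 precursors, was 1.72, 1.85 and 1.80 with cisplatin and 2.77, 2.43 and 2.69 with PBS. Both ratios were lower in every cisplatin library. Rel to Rela was 0.464, 0.412 and 0.462 with cisplatin and 0.324, 0.362 and 0.321 with PBS, and Relb to Rela was 0.407, 0.359 and 0.440 against 0.330, 0.309 and 0.333. Rel and Relb thus stood higher relative to Rela in every cisplatin library. Nfkbib to Nfkbia was 0.0903, 0.105 and 0.0985 with cisplatin and 0.0723, 0.0714 and 0.0783 with PBS. None of the 5 ratios overlapped between the groups. The share of other gene pairs without overlap was not taken, and 72.4% of single tested genes did not overlap either. The genes of a ratio can differ in GC content, 59.4% in Rela against 42.5% in Rel and 52.9% in Nfkbia, and a GC trend between the groups enters the ratio.

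**Figure D4:**
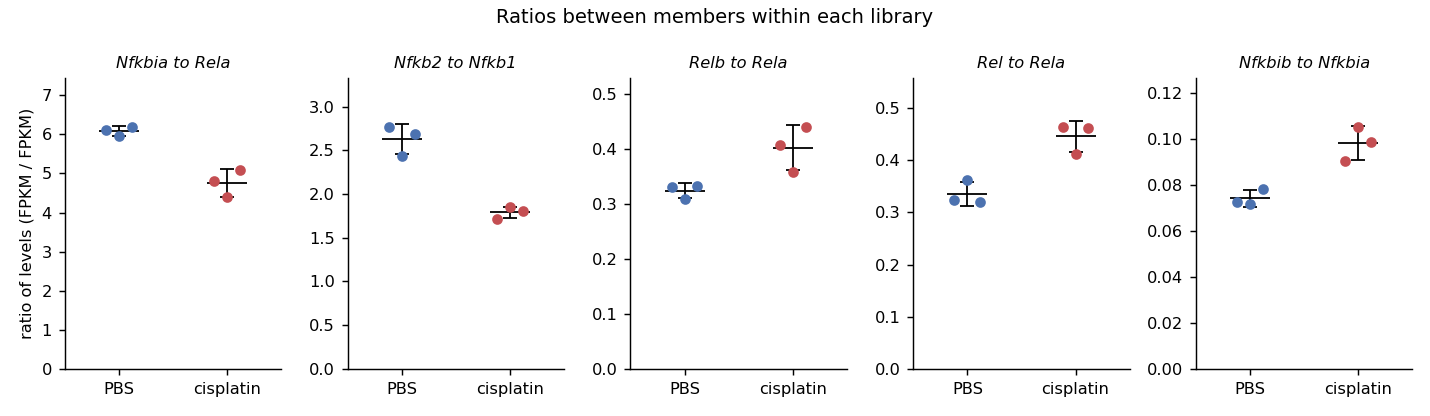
Ratios of FPKM levels between pairs of the 10 genes within each PBS library (blue) and each cisplatin library (red), with means (lines) and 1 SD (bars), each panel with its own axis from 0. Nfkbia to Rela and Nfkb2 to Nfkb1 are lower in all 3 cisplatin libraries, and the other 3 ratios are higher.

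The rest of the pathway was read from 7 lists ordered by role, with 88 of 92 genes tested, of which limma placed 33 higher and 34 lower (adjusted p under 0.05), with a median of 0.027 on the log2 scale. These totals were close to the 32.9% and 35.1% of all tested genes. Scaling by the Y-linked genes left 2 higher, both of them targets, and it left 3.71% of all tested genes higher and 82.6% lower. Of 11 tested genes of receptors and co-receptors, Tlr2, Cd14, Ly96, Cd40, Ltbr and Tnfrsf11a were higher (median of the 11 0.18), whereas scaling by the Y-linked genes gave 0 higher and 9 lower. No receptor gene for tumour necrosis factor or interleukin-1 was among the 6. Tnfrsf1a, Il1r1 and Il1rap did not pass (log2 fold changes of -0.032, -0.060 and 0.024), nor did Tlr4 (-0.022). Tnfrsf1b had -0.17 (adjusted p = 0.00244), but -0.083 (adjusted p = 0.051) with scaling by recovered reads and -1.17 with scaling by the Y-linked genes. None of the 11 passed the 2-fold rule, which is set on log2(FPKM + 1) and so understates genes with low levels. Among ligands, 4 of 5 tested were higher, with a median of 0.57, which turned to 0 higher and 4 lower under that scaling. Tnf and Il1b, named after their values were seen, encode the prototype inducers of the pathway and had log2 fold changes of 0.30 (adjusted p = 0.00137) and 0.62 (adjusted p = 1.98e-05), and of -0.69 and -0.37 under that scaling. Lta, which encodes lymphotoxin α, was the exception among the ligands, at 0.808, 0.616 and 0.832 FPKM with cisplatin and 3.27, 3.44 and 3.54 FPKM with PBS. It fell by 1.34 on the log2 scale (SE 0.085, limma adjusted p = 1.21e-05), a value that the pseudocount of 1 makes small at such low levels, since it was -2.05 with a pseudocount of 0.1.

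Adaptors that carry the signal from receptors were 6 higher, 4 lower and 3 neither of 13 (median 0.18), and 0 higher and 12 lower under scaling by the Y-linked genes. Beside this list and the next 2, 32.9% of all tested genes were higher and 35.1% lower, and 3.71% and 82.6% under that scaling. Card9, an adaptor of C-type lectin receptors, stood at 22.3, 25.8 and 26.2 FPKM with cisplatin and at 11.9, 10.8 and 11.3 FPKM with PBS. Its log2 fold change of 1.06 (SE 0.071, limma adjusted p = 1.51e-05) was 0.12 under that scaling (adjusted p = 0.263). The ubiquitin ligases of the TRAF, cIAP and LUBAC groups, which build the chains that recruit the kinases, were 1 higher, 6 lower and 3 neither of 10 (median -0.16), and 0 higher and 10 lower under that scaling. The list of kinases, which also holds the partner genes Ikbkg, Tab1, Tab2 and Tab3, had 3 higher, 5 lower and 3 neither of 11 (median 0.050). It had 0 higher and 11 lower under that scaling. Ikbkg and Tab2 were among the 3 higher, and Tab1 and Tab3 among the 5 lower. Tab1, a partner of the kinase TAK1, stood at 5.65, 5.55 and 5.03 FPKM with cisplatin and at 13.8, 11.4 and 13.97 FPKM with PBS. It fell by 1.13 on the log2 scale (SE 0.085, limma adjusted p = 2.75e-05). Its value was -2.01 under that scaling.

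NIK, which drives the slower route, and the complex that degrades it were described gene by gene after their values were seen. Map3k14, which encodes the kinase NIK, had a log2 fold change of -0.64 (adjusted p = 0.00012), and -1.50 under scaling by the Y-linked genes. Traf2 and Birc2, parts of the complex that degrades NIK, had values of -0.89 (adjusted p = 4.73e-05) and -0.59 (adjusted p = 3.16e-05), and -1.80 and -1.52 under that scaling. Birc3, whose product is a close relative of that of Birc2 in the same complex, differed by less, with -0.17 (adjusted p = 0.0161), and -1.14 under that scaling. Birc3 had -0.083 (adjusted p = 0.115) with limma voom, -0.065 (limma adjusted p = 0.30) with quantile normalisation and -0.082 (adjusted p = 0.142) with scaling by recovered reads. It had -0.13 (adjusted p = 0.0547) without cisplatin replicate 2 and -0.17 (adjusted p = 0.0557) with a replicate block. Traf3, which brings NIK to that complex, had 0.41 (limma adjusted p = 7.52e-05), and -0.52 under scaling by the Y-linked genes. Ikbkg, which encodes the regulatory subunit of the canonical IκB kinase and is no part of that complex, had 0.72 (adjusted p = 2.55e-05), and -0.22 under that scaling.

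Further inhibitors of the pathway were 4 higher, 8 lower and 4 neither of 16 (median -0.13), and 0 higher and 16 lower under scaling by the Y-linked genes. Of all tested genes 32.9% were higher and 35.1% lower, and 3.71% and 82.6% under that scaling. Tnip3, which encodes an A20-binding protein, stood at 4.53, 4.24 and 4.30 FPKM with cisplatin and at 13.0, 13.1 and 12.7 FPKM with PBS. It fell by 1.38 on the log2 scale (SE 0.046, limma adjusted p = 6.04e-07). Its value was -2.24 under that scaling. Of the others, named after their values were seen, the A20-binding partner gene Tnip1 had a log2 fold change of -0.71 (adjusted p = 6.53e-06) and Bcl3, which encodes a nuclear IκB protein that binds p50 and p52, -0.69 (adjusted p = 7.05e-06), and -1.70 and -1.66 under that scaling. Nfkbid, the gene of another nuclear IκB protein, went the other way with 0.44 (adjusted p = 9.74e-05), and -0.52 under that scaling. The nuclear IκB genes Nfkbiz, Bcl3 and Nfkbid therefore did not share a direction under the deposited scaling.

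Well-known NF-κB targets moved both ways and over a wider range than the members. Of 22 tested, 9 were higher, 9 lower and 4 neither (median 0.032), and 2 were higher and 18 lower under scaling by the Y-linked genes. Of all tested genes 32.9% were higher and 35.1% lower, and 3.71% and 82.6% under that scaling. At 2-fold or more, 3 of the 22 were higher and 5 lower, against the 4.67% and 11.3% of all tested genes. Nos2, the inducible nitric oxide synthase gene, fell from 126, 129 and 129 FPKM with PBS to 3.12, 2.86 and 2.32 FPKM with cisplatin, by 5.11 on the log2 scale (SE 0.079, limma adjusted p = 5.39e-08). The chemokine gene Ccl5 stood at 15.2, 14.2 and 16.9 FPKM with PBS and at 3.61, 4.12 and 4.42 FPKM with cisplatin, which is -1.70 on the log2 scale (SE 0.085, adjusted p = 3.77e-06). Under that scaling Ccl5 had -2.56. The chemokine genes Cxcl3 and Ccl22 rose in 20 of 20 alternatives. Cxcl3 stood at 29.5, 26.6 and 27.9 FPKM with PBS and at 169, 163 and 160.3 FPKM with cisplatin (log2 fold change 2.51, SE 0.047, adjusted p = 7.82e-08), and 1.53 under that scaling. Ccl22 went from 1.51, 1.05 and 1.16 FPKM to 11.7, 12.2 and 12.4 FPKM (log2 fold change 2.55, SE 0.085, adjusted p = 5.96e-07), and 1.80 under that scaling. The targets thus ranged from -5.11 to 2.55 on the log2 scale, while the 10 members stayed between -0.55 and 0.28.

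**Figure D5:**
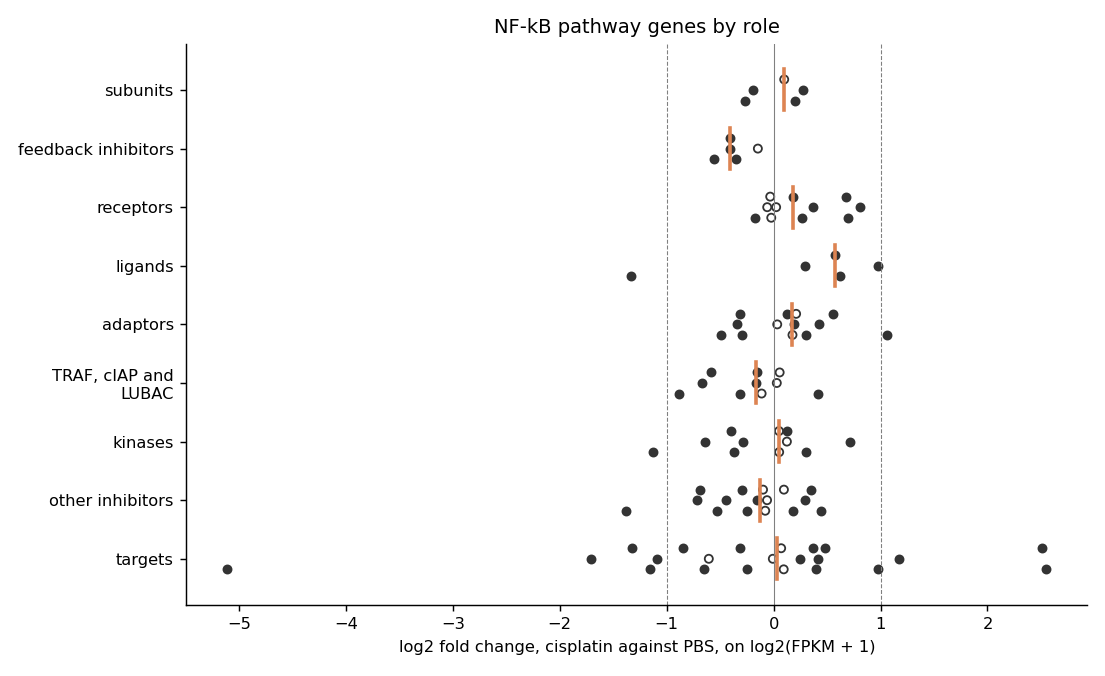
Log2 fold change of cisplatin against PBS on log2(FPKM + 1), deposited scaling, for the 10 genes (subunits, feedback inhibitors) and for 88 tested pathway genes by role; filled points passed an adjusted p under 0.05, open points did not, orange bars are list medians and dashed lines mark a 2-fold difference. The inhibitors lie together below 0, the subunits lie on both sides of it, and the targets reach from -5.11 to 2.55. Under scaling by the Y-linked genes the subunits, too, all lie below 0, where 82.6% of all tested genes were lower.

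Genes whose pattern over the 6 libraries was most like that of a member were sought for the largest rise and the largest fall, by the root mean square distance on log2(FPKM + 1) centred per gene. Nearest to Nfkb1 were Ddx20 (distance 0.019), Fgfr1op2 (0.0194) and Csf2rb (0.0248), with log2 fold changes of 0.29, 0.29 and 0.25. Nearest to Nfkbia were Yaf2 (0.0125), Ints3 (0.0146) and Fbxw8 (0.0178), with -0.54, -0.55 and -0.58. Over so few libraries a like pattern mainly means a like difference between the groups.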

How the data were processed

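RNA was sequenced from 6 libraries, 3 per group, after poly-T selection. The sample labels gave each library's group and replicate number. Levels were deposited as FPKM, which the authors computed per gene. The submitters' processing notes list fastp, HISAT2 2.0.5, featureCounts 1.5.0-p3 and mm10, whereas the study's methods name LifeScope and DESeq2. These sources differ, and neither states whether counting used strand. The deposited coordinates are used as given. No per-sample column was left without a sample.

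FPKM are not counts, so a log-scale test was used. Multiplied by gene length, values worth fewer than 200 reads were whole multiples of a step per library in 100% of cases (tolerance 0.02 of a read). Recovered reads summed to 15776238 to 16396353 with cisplatin and 15907567 to 17924686 with PBS, which leaves little counting error for the 10 genes. The FPKM denominators were 103.7% to 104.1% of these sums with cisplatin and 97.45% to 98.74% with PBS, and median-of-ratios factors of the deposited FPKM were equal in all 6 libraries.

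Genes with at least 1 FPKM in at least 3 of 6 libraries (13441) were tested on log2(FPKM + 1) with limma 3.58.1 under R 4.3.3 (lmFit, eBayes with a trend, group only, two-sided), with Benjamini-Hochberg adjustment over all of them. Higher or lower means an adjusted p under 0.05, and the 2-fold rule also asks for a difference of 1 or more, in size, on the log2 scale. The pseudocount of 1 understates the differences of low genes. The procedure was also run on simulated reads in which few genes were changed and the cell mixture was the same in both groups. Such reads cannot speak to the mixture of cell types or to the choice of scaling. GC content was taken from GENCODE M21 transcripts and promoter windows from RefSeq for GRCm38.p6. Protein sequences were not used here.

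The members and lists were chosen with earlier results of these data known. All 10 members are named, with at most the 4 largest differences among genes past the 2-fold rule in each pathway list, the 3 nearest patterns to the largest rise and fall, and the Y-linked genes and Xist. The receptor genes and the B-lineage genes were named outside these rules, with their values in view. For other pathway genes the text says where a name was chosen in that way. The summed level of the lymphocyte markers is not reported here.

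Alternatives were, for the filter, none or 5 FPKM, a pseudocount of 0.1, scaling by median of ratios, TPM, quantiles or Y-linked genes, no trend, limma voom on recovered reads, protein-coding genes only, a replicate block, leaving out each library, and limma treat. Added after seeing the data were scaling by recovered reads and removal of loess trends on gene length and GC content. Replicate numbers did not pair the libraries.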

Additional observations from a re-analysis of the deposited data

How the results depend on the processing

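The differences of Nfkb2, Nfkbia, Nfkbie, Nfkbiz and Tnfaip3 kept their direction and stayed past the threshold in 20 of 20 alternatives. Changed filters, protein-coding genes only, no trend, a replicate block and median-of-ratios scaling leave the log2 fold change as it is. These could not turn a direction. Rela lost significance in 7 with its direction unchanged, Relb gained it in 5 with a positive value and, with the opposite sign, under scaling by the Y-linked genes, where Nfkbib gained it too. Scaling by the Y-linked genes changed the most. It moved the median log2 fold change of all tested genes to -0.83, with 82.6% of them lower. It turned Nfkb1 to -0.69, Rel to -0.75, Relb to -0.85, Ikbkg to -0.22, Il1b to -0.37, Nfkbid to -0.52, Tnf to -0.69 and Traf3 to -0.52. It gave 0 of the 10 genes higher and 10 lower, 7 of them at least 2-fold lower. In the pathway lists it gave, as higher and lower, 0 and 9 receptors, 0 and 4 ligands, 0 and 12 adaptors, 0 and 10 TRAF, cIAP and LUBAC genes, 0 and 11 kinases and their partners, 0 and 16 further inhibitors and 2 and 18 targets. Elsewhere the filter at 5 FPKM, by leaving fewer genes, gave 0 ligands lower. Higher genes among the kinases and their partners numbered 6 with limma voom and with scaling by recovered reads, and 5 with quantile normalisation. Higher TRAF, cIAP and LUBAC genes numbered 2 with limma voom and with quantile normalisation, and 0 receptors were lower with scaling by recovered reads. The causes of these shifts were not tested. Over all tested genes, 628 passed the 2-fold rule upward and 1514 downward, so 29.3% of the genes past that rule went upward. The shares that follow are taken in the same way. The Y-linked scaling gave 85 and 5181 (1.61%), limma voom 1227 upward (39.7%), a pseudocount of 0.1 gave 973 upward, and limma treat 240 and 982. Quantile normalisation gave a share of 39.3% and a median log2 fold change of 0.10 over all genes. Median-of-ratios scaling could change no value, since the deposited FPKM already carry it. With 1 library left out at a time, Nfkbia ranged from -0.58 to -0.53, Nfkb1 from 0.26 to 0.29 and Rela from -0.26 to -0.16. A fit with a replicate block kept the calls of all 10 members, in that the same 2 genes were higher and the same 6 lower, and Nfkbia kept -0.55 (limma adjusted p = 0.000476). Over all genes, 4146 were higher and 4485 lower with the block, against 4424 and 4721 without it. Same-numbered libraries did not deviate together (correlations of -0.10, -0.086 and -0.024), so equal numbers are not taken as pairs. Depth limits little here, since every member is well expressed. What limits the comparison is 3 libraries a group, the mixture of cell types and the dependence of directions on scaling.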
